A study of Mus musculus with 250 samples.

Results

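Igsf1 is an X-linked gene whose level in the single astrocytes of this series ran from 0 reads to 9089 counts per 1000000 of the cell's counted reads. It is 1 gene of the 24490 rows of the deposited count table, 16367 of which have reads. It was chosen by its measured variation between these cells, so its distribution is described here without a test. The series holds 250 single cells titled brain astrocytes, and each cell is a sample of its own. All of them came from adult C57BL/6 mice about 3 months old that carried both SM22-Cre and Rosa26-stop-tdTomato, and there is no other group. In such mice the promoter of the smooth muscle gene Tagln drives Cre, which removes a stop in front of a red fluorescent protein. The labels do not say how many animals were used, or by which gate the cells were sorted into wells. Smart-seq2, which copies polyadenylated RNA over its full length, was used in each well. Names of the wells carry the prefixes Brain.VSMC2 (162 cells, called plate 2) and Brain.VSMC3 (88 cells, called plate 3).

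IGSF1 is a membrane glycoprotein built of a long row of immunoglobulin-like loops. The precursor is cut inside the cell, and its carboxy-terminal part reaches the surface. In people, loss of the gene causes central hypothyroidism, often with enlarged testes, and the protein is best known from the pituitary cells that make thyrotropin. An early proposal made it a co-receptor for inhibin, and links to activin and TGF-beta signalling have been studied since. Astrocytes take part in thyroid hormone supply to the brain, because they take up the prohormone and convert it to its active form.

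The gene lies on the minus strand of chromosome X at 49782536 to 49797749 (GENCODE M21 on GRCm38, the assembly that mm10 names). Its annotation holds 5 transcripts, 4 of them coding, and the longest has 20 exons and 4421 bases. RefSeq gives promoter windows for 3 start sites. Counts per gene do not tell which start was used. The windows of starts 1 and 3 are shown because the longest transcript and a transcript of 2671 bases with 11 exons, which ends at the same base, begin there. Each runs from 250 bases before the start to 20 bases into the transcript, on the gene's strand (RefSeq, GRCm38.p6). Capitals mark matches on either strand to the E-box (CANNTG), the GC box (GGGCGG), the NFI half-site (TTGGC) and the nuclear receptor half-site (AGGTCA).
Igsf1 start 1, chrX:49797726-49797995: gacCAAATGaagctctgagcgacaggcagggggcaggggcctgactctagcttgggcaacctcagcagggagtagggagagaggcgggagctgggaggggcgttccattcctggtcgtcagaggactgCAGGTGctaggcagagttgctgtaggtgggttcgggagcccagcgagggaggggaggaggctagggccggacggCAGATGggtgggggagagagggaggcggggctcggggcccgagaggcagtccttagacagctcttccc
Igsf1 start 3, chrX:49788224-49788493: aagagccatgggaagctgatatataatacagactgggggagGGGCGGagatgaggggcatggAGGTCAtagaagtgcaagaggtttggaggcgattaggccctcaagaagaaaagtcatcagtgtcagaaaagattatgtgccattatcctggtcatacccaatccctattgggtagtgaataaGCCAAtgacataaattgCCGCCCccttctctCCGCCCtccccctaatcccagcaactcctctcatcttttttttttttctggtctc

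The window of start 1 has 66.3% G and C, more than 84.8% of 32851 promoter windows of this length, and holds 3 E-boxes. That of start 3 has 47.8% G and C, with 3 GC boxes, 1 NFI half-site and 1 nuclear receptor half-site. That of start 2, at 49795345 to 49795614, has 42.6% G and C and 1 E-box. None of the 3 windows holds the TATA box (TATAAA) or the SOX core (ACAAT), and no matches overlapped. Among all windows, 68.9% hold an E-box, 34.1% a GC box, 43.6% an NFI half-site, 15.0% the nuclear receptor half-site, 12.9% the TATA box and 29.1% the SOX core. These matches are letters in a window, with no evidence here of a bound factor.

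The cells held 102161 to 564958 counted reads each, with a median of 256247 on plate 2 and 391072 on plate 3. Of the 16 astrocyte markers, 15 were detected in 50% of the cells or more, where detected means at least 10 CPM, counts scaled to a cell total of 1000000, while 5.92% of all genes with reads passed this. Gfap, with 32 cells, was the exception. Tagln was detected in 5 cells. No animal is named, so cells are not replicates, and no test was made between cells or plates. Every SD is the spread between cells.

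Igsf1 had a mean of 1249 CPM (SD 1510, n = 250 cells) and a median of 781 CPM. The lowest cell had 0 reads and the highest 9089 CPM, from 2975 reads. The quartiles were 49.9 and 1776 CPM. The middle of the distribution was thus wide, from near 0 to well over 1000 CPM.

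Igsf1 was off, at under 10 CPM, in 59 of 250 cells (23.6%, exact 95% interval 18.5 to 29.4%). It was low, at 10 to under 1000 CPM, in 80 cells (32%, 26.3 to 38.2%), and high, at 1000 CPM or more, in 111 cells (44.4%, 38.1 to 50.8%). The intervals cover counting error over cells only. The lower bound fell in a sparse stretch of the distribution, since only 10 cells had 10 to under 100 CPM, while 70 had 100 to under 1000 CPM. The upper bound fell in a dense one. The cells nearest to it had 987 and 1003 CPM, and those nearest to the lower bound had 9.00 and 10.2 CPM. Low and high are therefore ranges of 1 broad distribution, and the shares move with the bound: at 500 CPM 58.4% of cells were high, and at 2000 CPM 23.2%.

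Of the 59 cells with Igsf1 off, 42 had 0 reads and 17 had 1 or 2 reads. The 42 cells had 113341 to 506792 reads in total. If a count of 0 allows for 3 reads, their Igsf1 level could have been up to 5.92 CPM in the deepest and 26.5 CPM in the shallowest of them. All of these limits lie far under the median of 1252 CPM in the 191 cells with Igsf1 detected. They cover counting error of the reads only. RNA that was in a cell but not copied would also give 0 reads, which was not tested. The 20 detected cells with the most Igsf1 held 32.5% of the Igsf1 signal of all detected cells. In these 191 cells the level still had a CV of 0.938, with quartiles of 538 and 2362 CPM.

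**Figure D1:**
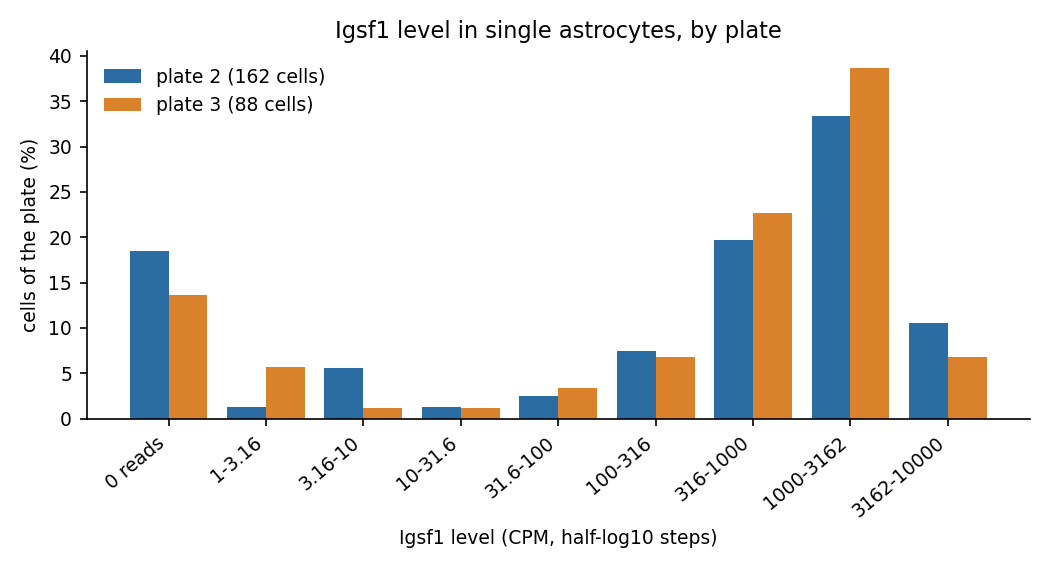
Igsf1 level in steps of the log10 scale (x axis, CPM, with cells of 0 reads in the first step) against the share of the plate's cells (y axis, %), for plate 2 (162 cells, blue) and plate 3 (88 cells, orange). Both plates have a group at 0 reads (18.5% and 13.6% of cells), few cells at 10 to 100 CPM and most cells above 100 CPM.

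The distribution differed little between the plates. On plate 2 the cells ranged from 0 to 9089 CPM with a median of 756 CPM, and on plate 3 from 0 to 7238 CPM with a median of 832 CPM. The mean was 1273 CPM (SD 1611, n = 162) and 1206 CPM (SD 1310, n = 88), a log2 ratio of plate 3 over plate 2 of -0.08. Off cells made up 25.3% (18.8 to 32.7%) of plate 2 and 20.5% (12.6 to 30.4%) of plate 3. High cells made up 43.8% (36.1 to 51.8%) and 45.5% (34.8 to 56.4%). Each of these intervals holds the other plate's share. Of the 9 cells at 5000 CPM or more, 8 were on plate 2.

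Total reads differed little between off, low and high cells. In off cells the median total was 278689 reads, beside 289027 in low and 280877 in high cells. The median number of genes detected was 2326, 2392 and 2420. Over the cells of a plate, Igsf1 had a Spearman rho of 0.06 and 0.05 with total reads on plates 2 and 3, and 0.14 and 0.04 with genes detected. With the row of the well it had 0.01 and -0.02, and with the column 0.02 and -0.13. With every cell thinned to 50000 reads, the mean was 1267 CPM on plate 2 and 1189 CPM on plate 3.

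Few genes with as many reads were missing from so many cells. The 20 genes nearest to Igsf1 in mean CPM, at 1111 to 1426 CPM, were detected in 193 to 249 cells with a median of 242.5, and Igsf1 in 191. None of the 20, and none of the 50 nearest, was in fewer cells. The nearest in detection was Nnat, an imprinted neuronatin gene, with 193 cells and a CV of 1.21. The CV of Igsf1 was also 1.21, where the median of the 20 was 0.686. Others among them were Lamp1, a lysosomal membrane protein gene, in 243 cells and the cell adhesion gene Hepacam in 243. Of the 90 genes with a mean of 1000 CPM or more, Igsf1 included, only Igsf1 itself was in as few cells. Igsf1 was chosen for its variability, so this is a description. CPM is not corrected for gene length, and the levels of these genes are not compared here.

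**Figure D2:**
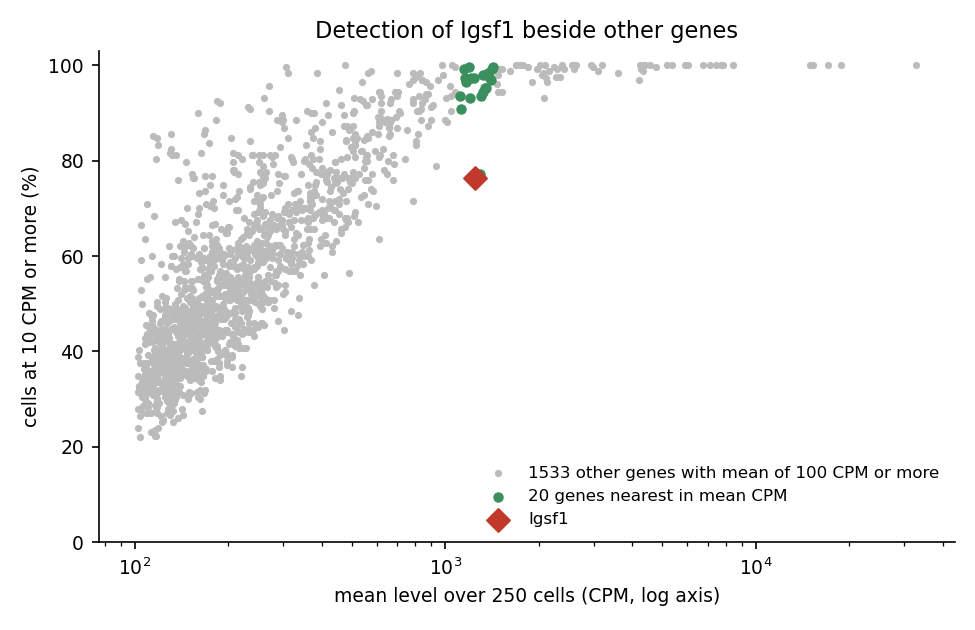
Mean level over 250 cells (x axis, CPM, log axis) against the share of cells at 10 CPM or more (y axis, %) for genes with a mean of 100 CPM or more on both plates. Igsf1 (red diamond, 76.4% of cells) lies under the 20 genes nearest in mean CPM (green, 77.2 to 99.6%), of which Nnat, at 77.2%, is almost hidden behind it.

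Reads of Y-linked genes were common. A read of Ddx3y, Eif2s3y, Uty or Kdm5d was present in 209 of 250 cells (83.6%), in 139 of 162 on plate 2 and 70 of 88 on plate 3. Xist, the RNA that silences 1 X chromosome in female cells, had reads in 5 cells, and 1 cell, which also had Y-linked reads, held 228 of its 250 reads. Y-linked genes have close copies on the X chromosome, and how shared reads were counted is not given. In the 209 cells with a Y-linked read, Igsf1 was off in 52 (24.9%), and in the 41 without one it was off in 7 (17.1%). On plate 2 the shares were 25.9% of 139 cells and 21.7% of 23, and on plate 3 22.9% of 70 and 11.1% of 18. Off cells were thus present with and without Y-linked reads, and their share was higher with them on both plates. Without such reads the off cells numbered only 5 on plate 2 and 2 on plate 3. The mean of Igsf1 went in opposite directions on the plates. With and without a Y-linked read it was 1169 and 1904 CPM on plate 2, and 1240 and 1075 CPM on plate 3. A relation to Y-linked reads was not tested.

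The genes next to Igsf1 were almost silent. The annotation has 23 other genes that start within 1 Mb, 9 of them with a row and 4 with reads. The 5 olfactory receptor genes among the 9 (Olfr1320 to Olfr1324) had no reads. Gm595 had 8 reads in 1 cell, Arhgap36 was detected in 2 cells and Enox2, which codes for a surface oxidase, in 13. Firre, a noncoding RNA gene that starts 838 kb away, was found at 286 CPM on average and detected in 164 cells. Its rho with Igsf1 was -0.02 on plate 2 and -0.15 on plate 3. Of the 52 X-linked genes with a mean of 100 CPM or more on both plates, 30 had a rho above 0 on plate 2 and 28 on plate 3, with medians of 0.02 and 0.00. Over all genes of this level, 55.2% and 52% had a rho above 0, so these counts are near the background. None of the 52 reached 0.15 on both plates, where 0.978% of all genes of this level did, which is also near the background.

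Which genes vary with Igsf1 was read from 1533 other genes with a mean of 100 CPM or more on both plates. The 15 with the highest and the 10 with the lowest Spearman rho with Igsf1 were chosen over the 162 cells of plate 2, and their rho was then read over the 88 cells of plate 3. The points of 1 plate share a plate, its sequencing and, where the animals were few, the animal, so each rho is a description without a p-value. The highest set was led by abundant astrocyte genes. Its range was 0.22 (Lonp2) to 0.38 (Ntsr2) on plate 2, and Twf1 was next below at 0.22.

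Of these 15 genes, 11 had a rho above 0 on plate 3, where 52% of all tested genes did. Of the 15, 9 reached 0.15 there, where 10.8% of all tested genes did. The median was 0.26 on plate 2 and 0.19 on plate 3, beside 0.01 and 0.00 over all genes tested. In the other direction, of the 15 genes highest on plate 3, 10 were above 0 on plate 2, where 55.2% of all tested genes were. At 0.15 or more there were 3, where 4.96% of all tested genes were. The plates differ in cell number and in this background share, so the counts of 9 and 3 are not directly comparable. Of the 15, 3 were in both choices. Over all tested genes, 15 (0.978%) reached 0.15 on both plates. Among them, outside the 15 chosen, were the small GTPase gene Nras (0.21 and 0.22 on plates 2 and 3) and the Notch ligand gene Dner (0.18 and 0.16).

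**Figure D3:**
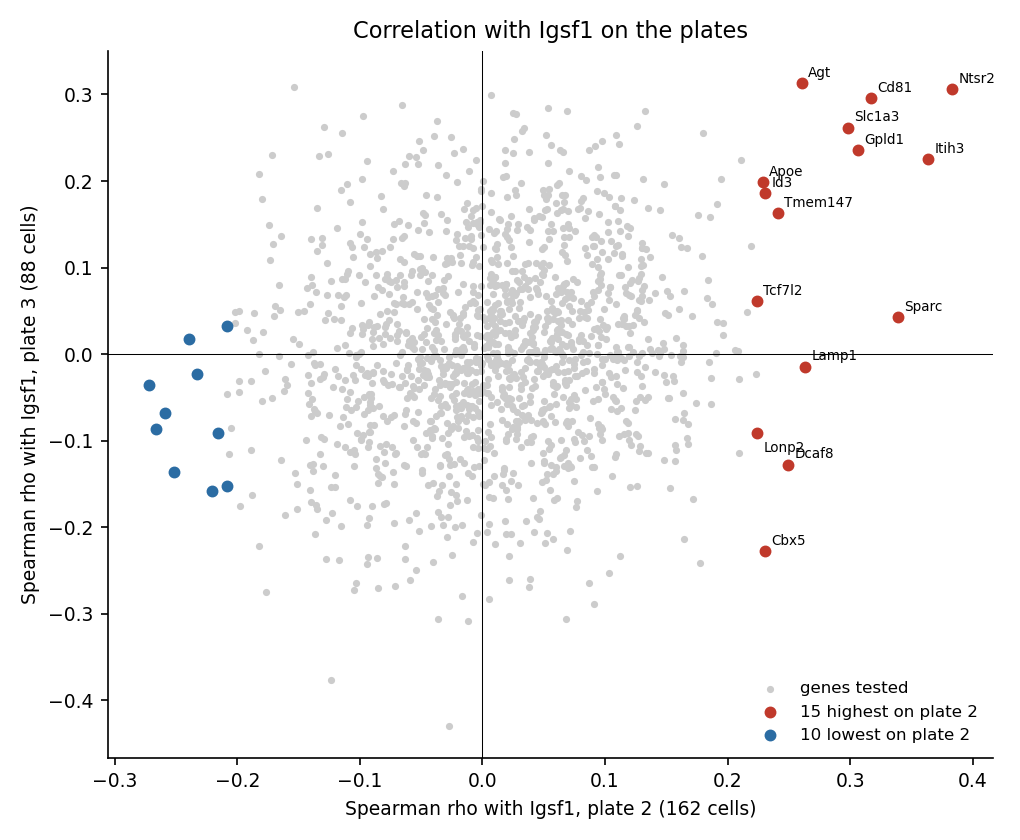
Spearman rho with Igsf1 over the 162 cells of plate 2 (x axis) and the 88 cells of plate 3 (y axis), 1 point per gene tested. The 15 genes highest on plate 2 are red and named, and the 10 lowest are blue. Ntsr2, Cd81, Agt, Slc1a3, Gpld1 and Itih3 lie apart at the upper right, while most blue points are near 0 on the y axis.

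The relation repeated best in genes with many reads. Of the 89 tested genes with a mean of 1000 CPM or more, 76.4% had the same sign on both plates, and the rho values of the plates had a Pearson correlation of 0.589 across these genes. For the 1125 genes under 300 CPM the share was 54.4% and the correlation 0.0729. Genes are not independent replicates.

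Ntsr2, a neurotensin receptor gene of astrocytes, had the highest rho on plate 2 (0.38) and ranked 3 of 1533 on plate 3 (0.31). On plate 3 its median was 4454 CPM in the 18 cells with Igsf1 off (388 to 7380 CPM), 4541 CPM in the 30 low cells (2735 to 8866 CPM) and 5627 CPM in the 40 high cells (1775 to 11446 CPM). On plate 2 the medians were 4205, 4935 and 6056 CPM. The medians were highest in high cells on both plates, and the ranges of single cells overlapped widely.

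Agt, which codes for angiotensinogen, had 0.26 on plate 2 and ranked first on plate 3 (0.31). Its plate 3 median was 2919 CPM in off cells (0 to 9939 CPM), 2818 CPM in low cells (306 to 10328 CPM) and 5399 CPM in high cells (317 to 13486 CPM). On plate 2 the medians were 2417, 4203 and 4064 CPM. The step thus lay between low and high cells on plate 3 and between off and low cells on plate 2.

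Cd81, a tetraspanin gene, had 0.32 and 0.30 on plates 2 and 3. Its medians in off, low and high cells were 4645, 5797 and 6678 CPM on plate 2 and 4952, 5212 and 6305 CPM on plate 3. The order of the 3 medians was the same on both plates.

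Itih3, which codes for a hyaluronan-binding serum protein, had 0.36 and 0.23. Its medians in off, low and high cells were 1365, 2913 and 4358 CPM on plate 2 and 2193, 2643 and 3123 CPM on plate 3. On plate 3 single high cells ranged from 243 to 17810 CPM and off cells from 2.82 to 9574 CPM. The ranges overlapped here too.

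Slc1a3, a glial glutamate transporter gene, had 0.30 and 0.26, and Gpld1, a phospholipase that frees GPI-anchored proteins, 0.31 and 0.24. In high cells of plate 3 the median of Slc1a3 was 4124 CPM, beside 2812 CPM in off and 2378 CPM in low cells. That of Gpld1 was 1430 CPM in high, 1271 CPM in off and 926 CPM in low cells. For both genes off and low cells were in reversed order on this plate.

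Apoe, the main lipid carrier gene of the brain, had 0.23 and 0.20, with plate 3 medians of 16923, 19242 and 20371 CPM in off, low and high cells. Id3, a target of BMP signals, had 0.23 and 0.19 and was detected in 7 of 18, 13 of 30 and 23 of 40 cells of plate 3. Tmem147, a membrane protein gene of the endoplasmic reticulum, had 0.24 and 0.16 and was detected in 7, 13 and 23 of the same cells. These complete the 9 genes of the 15 that reached 0.15 on plate 3.

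The other 6 did not repeat at that size. Sparc, a secreted matrix protein gene, had 0.34 on plate 2 and 0.04 on plate 3, although by Pearson correlation of log2(CPM + 1) it had 0.23 on plate 3. The Wnt pathway factor gene Tcf7l2 had 0.06 on plate 3 and Lamp1 had -0.01. Below 0 were also the peroxisomal protease gene Lonp2 (-0.09), Dcaf8, a ubiquitin ligase adaptor gene (-0.13), and Cbx5, a heterochromatin protein gene (-0.23).

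**Figure D4:**
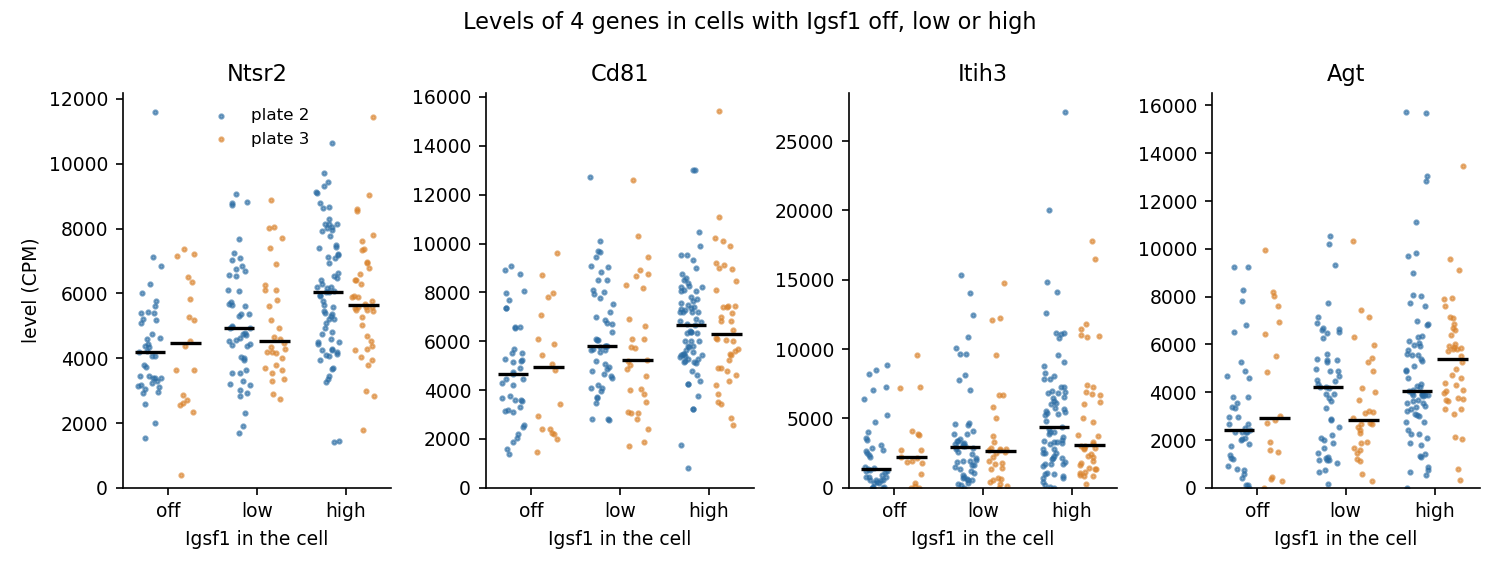
Levels of Ntsr2, Cd81, Itih3 and Agt (y axes, CPM, separate scales) in cells with Igsf1 off, low or high, 1 point per cell, plate 2 blue and plate 3 orange, with a black bar at each median. On both plates the median is higher in high than in off cells for all 4 genes (for Ntsr2, 6056 against 4205 CPM and 5627 against 4454 CPM), and the cells overlap.

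Genes that ran against Igsf1 repeated less. The 10 lowest ranged from -0.27 (Acadm) to -0.21 (Btbd17) on plate 2, with Cd47 next above at -0.21. On plate 3, 8 of the 10 were below 0, where 48% of all tested genes were, and 2 were at -0.15 or less, where 7.83% were. Their median was -0.24 on plate 2 and -0.08 on plate 3. Btbd17 was among these 2, with -0.21 on plate 2 and -0.15 on plate 3. In the other direction, 7 of the 10 genes lowest on plate 3 were below 0 on plate 2, where 44.8% of all tested genes were, and 1 was at -0.15 or less, where 3.65% were. None of these was among the 10 above. The count at -0.15 was also small under other settings: 1 gene or none reached -0.15 with cells thinned, by Pearson correlation, or in cells with Igsf1 detected.

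Acadm, a dehydrogenase gene of medium-chain fatty acid oxidation, had -0.27 and -0.04 on plates 2 and 3, and Acsbg1, an acyl-CoA synthetase gene, -0.27 and -0.09. The glutamine transporter gene Slc38a3 had -0.26 and -0.07, and the splicing factor gene Srsf5 -0.25 and -0.14. Sod3, an extracellular superoxide dismutase gene, had -0.24 and 0.02, the claudin gene Cldn10 -0.23 and -0.02, the kinase gene Limk2 -0.22 and -0.09, and Csdc2, which codes for an RNA-binding protein, -0.21 and 0.03. Of all tested genes 8 (0.522%) were at -0.15 or less on both plates, among them Luzp2 (-0.18 and -0.27) and the ferritin heavy chain gene Fth1 (-0.19 and -0.16).

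The 9 repeated genes also varied with each other. Over their 36 pairs the mean rho was 0.19 on plate 2 and 0.20 on plate 3, beside 0.29 and 0.24 for the 9 pairs with Igsf1. The 9 genes were chosen on their rho with Igsf1, which fixes the second pair of values, and the means are not compared. The pairs without Igsf1 ranged from -0.01 to 0.46 and from -0.13 to 0.52. With the rank of Itih3 held constant, the rho of Igsf1 with Ntsr2 was 0.38 and 0.25, beside 0.38 and 0.31 without this. That with Cd81 was 0.19 and 0.24 and that with Agt 0.12 and 0.25. With Ntsr2 held constant, Itih3 had 0.36 and 0.13 and Apoe 0.14 and 0.11. With Agt held constant, Ntsr2 had 0.35 and 0.23, Itih3 0.29 and 0.11 and Apoe 0.19 and 0.06. Partial correlations here were chosen after the data had been seen.

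The relation was also read among cells that had Igsf1. Over the detected cells alone, 121 on plate 2 and 70 on plate 3, Ntsr2 had 0.23 and 0.23 and Itih3 0.28 and 0.20. Cd81 had 0.14 and 0.22, and Agt 0.11 and 0.41. All of these values were lower than over all cells, except that of Agt on plate 3, which was 0.31 over all cells. When the sets were chosen anew among detected cells, 4 of the 15 highest genes were the same.

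The tested genes of thyroid hormone supply had low rho values with Igsf1 on plate 2 and mostly negative ones on plate 3. All 23 genes of this list have a row, 18 have reads and 4 were present in 50% of cells or more, where 5.92% of all genes with reads were. None of the 4 tested genes reached 0.15 or -0.15 on both plates. Of all tested genes 0.978% and 0.522% did, so this count is near the background. The 4 tested are the corepressor gene Ncor1 (-0.04 and 0.06), the coactivator gene Ncoa1 (0.03 and -0.08), the hormone-induced factor gene Klf9 (0.03 and -0.06) and Slco1c1. Slco1c1, which imports thyroxine, was detected in 123 cells and had 0.00 and -0.21. Dio2, which makes the active hormone, was detected in 44 cells, with 64.9 CPM on average and a rho of -0.04 and -0.24. The summed level of the list had -0.11 and -0.28. The receptor genes Thra and Thrb were detected in 82 and 42 cells. The receptor gene of thyrotropin-releasing hormone, Trhr, had no reads in any cell, so its relation to Igsf1 could not be read.

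Genes of activin, inhibin and TGF-beta signalling mostly had too few reads to be tested. Of 26 genes 25 had reads and none reached 50% of the cells, as 5.92% of all genes with reads did, so this count is near the background. The ligand subunit genes Inha, Inhba and Inhbb were detected in 14, 1 and 22 cells. Of the receptors, Acvr1 and Acvr1c were detected in 29 cells each, Acvr2a in 28 and Tgfbr1 in 22, and of the signal carriers, Smad3 in 53 and Smad4 in 45. Only the secreted glycoprotein gene Fstl1, with 107 cells, was high enough to be tested, and it had 0.05 and 0.04. The summed level of the list had -0.03 on plate 2 and 0.23 on plate 3.

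Of the 18 genes of BMP signalling 4 were tested. Id3 was the 1 that reached 0.15 on both plates, where 0.978% of all tested genes did. The receptor genes Bmpr1a and Bmpr1b had 0.12 and 0.10 on plate 2 and -0.02 and -0.09 on plate 3, and Id4, under the level needed to be tested, had 0.01 on each. Id2, detected in 223 cells and the 1 member in more than 50% of them, had -0.08 and 0.07.

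Other adhesion genes of the immunoglobulin superfamily were read next. Of 36 genes, 16 were present in 50% of cells or more, where 5.92% of all genes with reads were. Of the 36, 17 were tested, with a median rho of 0.04 on each plate. None was at 0.15 or more on both, where 0.978% of all tested genes were, so this count is near the background. Ncam1, detected in all 250 cells, had 0.08 and 0.20, Hepacam -0.11 and -0.06, and Cadm1 0.08 and -0.17. Igsf11, the other Igsf gene in many cells (147), had -0.04 and 0.11. Igsf8 was detected in 67 cells and Igsf10 in 5.

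Markers of astrocytes outside the telencephalon had the highest median rho on plate 2 among the lists with 3 or more tested genes, at 0.26, but 0.06 on plate 3. Of the 5 tested genes, Agt and Itih3 reached 0.15 on both plates, where 0.978% of all tested genes did. The GABA transporter gene Slc6a11 had 0.18 and 0.06 and the glycine transporter gene Slc6a9 -0.03 and -0.06. The factor genes Irx2 and Irx5, detected in 35 and 27 cells, had 0.11 and 0.03, and 0.02 and 0.01. The summed level of the list had 0.39 and 0.21. Agt and Itih3, and Sparc and Itih3, were already known to vary together in these cells, so they do not count as separate observations. Of the telencephalic markers 2 were tested, and neither reached 0.15 on both plates, which is near the share of 0.978% over all tested genes. Mfge8 had -0.005 and -0.009, and Slc25a18 had 0.001 and 0.20. The median of these 2 was -0.002 on plate 2 and 0.095 on plate 3. On plate 3 it was thus not lower than the 0.06 of the markers outside the telencephalon. The summed level of the telencephalic list had -0.01 and 0.05.

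The genes known from earlier results to vary between these cells had a median rho with Igsf1 of 0.04 on each plate. Of 14 tested, 3 reached 0.15 on both plates, where 0.978% of all tested genes did, and these were Agt, Itih3 and Slc1a3. The list was drawn from these same cells, and these 3 genes were already counted above. They also varied with each other, so this count is no separate observation. Nnat, the nearest in detection among genes of like level, had 0.19 and 0.04. Hsd11b1, which regenerates active glucocorticoid, had -0.09 and -0.03, and Lcat, which esterifies cholesterol, -0.10 and 0.03. Serpina3n, a gene of reactive astrocytes that was too low on plate 2 to be tested, had 0.11 and 0.10.

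The summed level of astrocyte genes differed little between cells with Igsf1 off, low and high. The 16 16 astrocyte markers together had a median of 47612 CPM in off cells (23996 to 75080), 45579 CPM in low cells (26069 to 60273) and 46608 CPM in high cells (27710 to 62004), and a rho with Igsf1 of 0.02 and -0.06. Members differed: Ntsr2 and Slc1a3 reached 0.15 on both plates, while Aqp4, the water channel gene, had -0.09 and -0.24 and Slc1a2 -0.02 and -0.16.

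Cell types in which Igsf1 is well known were close to absent. Of the 7 pituitary markers, Tshb, Cga, Prl, Gh, Trhr and Pou1f1 had no reads, and Pomc was detected in 7 cells. Of the 8 tanycyte markers none was in more than 15 cells, Rax was in 6 and Crym in 0. Their sum had a median of 0 CPM in off, low and high cells, with highest values of 1655, 1246 and 927 CPM. Of the choroid plexus markers Ttr had no reads, Folr1 and Kl were in 1 cell each and Otx2 in 42, and the median sum was also 0 in the 3 ranges. The summed oligodendrocyte markers had medians of 779, 826 and 807 CPM, and the neuronal ones 8.82, 12.5 and 13.7 CPM. Over the 13 lists of other cell types, the rho of the sum with Igsf1 ranged from -0.14 (fibroblasts) to 0.13 (choroid plexus) on plate 2 and from -0.22 (tanycytes) to 0.15 (endothelial cells) on plate 3. Their part in the results was not tested. Without the 44 cells that had 3 or more detected markers of another type, chosen with the values in view, 21.8% of 206 cells were off and 45.1% high. Markers of tanycytes and Bergmann glia were not used in this choice, so cells with those markers were not removed for them.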

How the data were processed

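RNA of 250 single brain cells was measured with Smart-seq2. The deposited count table holds whole-number read counts per gene that were not normalized, per the file's own values. The other table the authors deposited gives a normalized score: 100% of its entries equal the count scaled to 500000 per cell, rounded. STAR 2.4.2a and mm10 are named in the submitters' processing notes. The read counter, strand setting, gene annotation and cell filter were not given in the sources used here. All 250 columns were matched to samples by name, and no cell was removed.

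CPM is the count divided by the cell's total and scaled to 1000000. Smart-seq2 has no molecular identifiers, so intervals (exact Clopper-Pearson, 95%) and the limit of 3 reads for a count of 0 cover counting error only. Spearman rho was computed within each plate (numpy 2.4.6, scipy 1.17.1, Python 3.11.15). The steps that choose correlated genes were tested on simulated data with planted relations, which is no test of the genes reported here. Named are Igsf1, the 15 highest and 10 lowest genes on plate 2, genes within 1 Mb and members of the lists. Genes with 0.15 or more on both plates and the nearest genes in level were named after their values were seen. Of the 10 lowest genes, 1 is counted but not reported here by name. Igsf1, its rule and the lists were chosen with earlier results of these data known. Alternatives were other bounds, thinning to 50000 reads, totals without Malat1 and Rn45s, the deposited scores, Pearson correlation, partial correlation, other minimum levels and exchanged plates.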

Additional observations from a re-analysis of the deposited data

How the results depend on the processing

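The shares of off, low and high cells depended on the bounds. With off defined as 0 reads, 16.8% of all cells were off and 38.8% low, and 18.5% were off on plate 2. With high defined from 500 CPM, 58.4% of all cells were high and 18% low, with 58.6% and 16.0% on plate 2 and 58.0% and 21.6% on plate 3. From 2000 CPM, 23.2% were high and 53.2% low, with 22.8% and 51.9% on plate 2 and 23.9% and 55.7% on plate 3. Thinned cells, other totals, the deposited scores and both sets of fewer cells left each share within its interval. Without the highest cell, and under these settings, the mean ranged from 1169 to 1418 CPM on plate 2 and from 1136 to 1271 CPM on plate 3.

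The count of the 15 highest genes at 0.15 or more on the other plate was 3 with the plates exchanged and 4 when genes were chosen by partial correlation given Itih3, in place of 9. With the plates exchanged the share over all tested genes was 4.96%, in place of 10.8%. Of the 10 lowest genes, 4 by Pearson correlation and 5 in cells with Igsf1 detected were below 0 on the other plate, in place of 8. The count of these at -0.15 or less, 2 as reported, was 1 by Pearson correlation, given total reads and genes detected, with thinned cells, from a mean of 200 CPM, with exchanged plates, without cells with markers of another type and given Itih3. It was 0 in cells with Igsf1 detected and in cells with a Y-linked read. The cause was not tested. Ranges of rho were read under the settings named here and the other totals, minimum levels and sizes. The partial correlations given Ntsr2 or Agt were left out. Ntsr2 had a rho of 0.23 to 0.40 on plate 2 and 0.23 to 0.36 on plate 3. Itih3 had 0.28 to 0.37 and 0.20 to 0.29, Agt 0.11 to 0.30 and 0.25 to 0.41, and Gpld1 0.19 to 0.38 and 0.18 to 0.31. On plate 3 the lowest value was under 0.15 for Tmem147 (0.065), Id3 (0.095), Apoe (0.115) and Slc1a3 (0.117). On plate 2 it was under 0.15 for Agt, Apoe (0.124), Cd81 (0.135) and Tmem147 (0.148). No paired analysis was possible because the labels give 1 group of cells. Depth limits what can be read from genes with few reads, and no animal is named, so the spread between animals is unknown.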
